A study of Mus musculus with 8 samples.

Results

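The Snrp, Sf3 and Srsf genes code for core proteins of the spliceosome and for the SR splicing factors. Their members were taken as every gene of the count table whose mouse symbol starts with Snrp, with Sf3a or Sf3b, or with Srsf and a digit, with pseudogenes left out. This gave 32 genes of the 27179 in the table. They comprised 8 Sm ring genes, 4 genes of the U1 and U2 particles, 3 SF3a genes, 6 SF3b genes and 11 SR genes.

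RNA was sequenced from whole primary tumours of 4T1.13 cells, a metastatic mouse mammary carcinoma line, grown in the mammary fat pad of female BALB/c mice. The 4 miR-21-KD tumours came from cells carrying a lentiviral vector whose H1 promoter drives an RNA that captures mature miR-21. The 4 VC (vector control) tumours came from cells with the same vector and a scrambled RNA. Both cell populations carried mCherry and hygromycin resistance and were pools of expanded single-cell clones, so differences between the pools and effects of the knockdown cannot be told apart. The labels give collection on day 14. The text of the study gives an earlier day, at which it places the start of regression of the miR-21-KD tumours. The vector was in the injected cells, and the host cells of the tumours were not modified. The labels do not tie each tumour to a separate animal, although the study calls the tumours biological replicates, and the p-values measure the spread between these samples.

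Introns are removed from pre-mRNA by small nuclear ribonucleoprotein particles (snRNPs), each built on a small nuclear RNA. In the U1, U2, U4 and U5 particles a ring of Sm proteins clasps that RNA after the SMN complex has loaded it. U1 reads the start of the intron, and U2, with its SF3a and SF3b subcomplexes, holds the branch point near the end. SR proteins bind exons and recruit these particles to the splice sites. One of them, SRSF1, is known to transform mammary epithelial cells.

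Library totals lay between 12134849 and 13592695 counts, so that a count of 0 allows a level of up to 0.221 to 0.247 CPM. CPM are counts expressed per fixed library size, here scaled with TMM factors so that tumours can be compared. The precursor gene Mir21a had 0 counts in all 8 libraries and mature miR-21 was not measured, so the knockdown could not be checked in these data. Genes of several cell types moved with the groups. All 10 leukocyte genes rose, with a summed level of 1611 to 2780 CPM in VC and 2945 to 4977 CPM in miR-21-KD tumours, as did 6 of 8 fibroblast genes (3195 to 8280 against 10750 to 23780 CPM) and 6 of 6 adipocyte genes (103.7 to 413.3 against 536.3 to 1411 CPM). Of 7 endothelial genes, 2 rose (28.6%, against 19.6% of all genes) and 5 did not pass, 3 of them below 0, and their summed levels overlapped (397.5 to 699.5 against 608.4 to 862.8 CPM). Of 8 mammary epithelial genes, 6 rose and 1, Krt18, fell (1288 to 2216 against 850.5 to 1898 CPM). Krt18 and Krt8 had the highest mean levels of this list in VC tumours (1022 and 808.3 CPM). Krt8 had a log2 difference of -0.88 that did not pass (edgeR adjusted p = 0.087). Of 10 genes of dividing cells, 9 fell, with summed levels of 1663 to 2297 CPM in VC and 618.3 to 1666 CPM in miR-21-KD tumours. No gene of these lists was at 0 in any tumour. Fewer cells of a type and less RNA per cell cannot be told apart in whole tumours. The part of these changes in the results on splicing genes was not tested.

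The miR-21-KD tumours differed in these sums. In miR-21-KD replicate 2 the dividing cell genes summed to 1666 CPM, against 618.3, 823.2 and 706.9 CPM in replicates 1, 3 and 4. It also had the lowest sums of leukocyte (2945 CPM), fibroblast (10750 CPM), adipocyte (536.3 CPM) and endothelial genes (608.4 CPM) of its group. The main counts of members are therefore given with and without it.

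The number of genes that could be tested was 30, and 10 of them fell in miR-21-KD tumours (edgeR quasi-likelihood test, Benjamini-Hochberg adjusted p under 0.05). These 10 are 33.3% of the 30 tested, where 19.5% of all 14382 tested genes fell. They were 5 Sm ring genes (Snrpd1, Snrpd2, Snrpd3, Snrpe and Snrpg), the U2 gene Snrpb2, Sf3a1 and Sf3a3 of SF3a, and Sf3b4 and Sf3b6 of SF3b. None of the 10 tested SR genes passed the threshold. No member rose by edgeR at this threshold, where 19.6% of all genes rose, and none rose by DESeq2 or limma-voom. At an unadjusted p under 0.05, 0 members were higher and 16 lower, where 25.3% of all genes were higher and 25.4% lower. The other 20 members did not pass. The number that fell was 14 by DESeq2, where 21.6% of all genes fell, and 12 by limma-voom, where 20.4% did, and both sets held the same 10 genes. With the replicate number as a block it was 13, where 22.1% of all genes fell.

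The log2 fold changes of the 30 genes had a median of -0.27 and ran from -0.67 for Snrpd1 to 0.18 for Sf3b5, and 27 of them were below 0. The median over all tested genes was -0.01. Without miR-21-KD replicate 2 the median of the 30 was -0.33, with 28 below 0, and the median over all genes was -0.02. Without miR-21-KD replicate 1 these values were -0.21, 26 and -0.01. With any other single tumour left out the median of the 30 lay between -0.29 and -0.24. In 10 members every miR-21-KD tumour was below every VC tumour, against 18.9% of all genes tested. These were 8 of the 10 that fell, without Sf3a3 and Snrpg, together with Srsf6 and Srsf11. Without miR-21-KD replicate 2, a comparison added after the data were seen, the count was 18 members, against 27.3% of all genes.

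**Figure D1:**
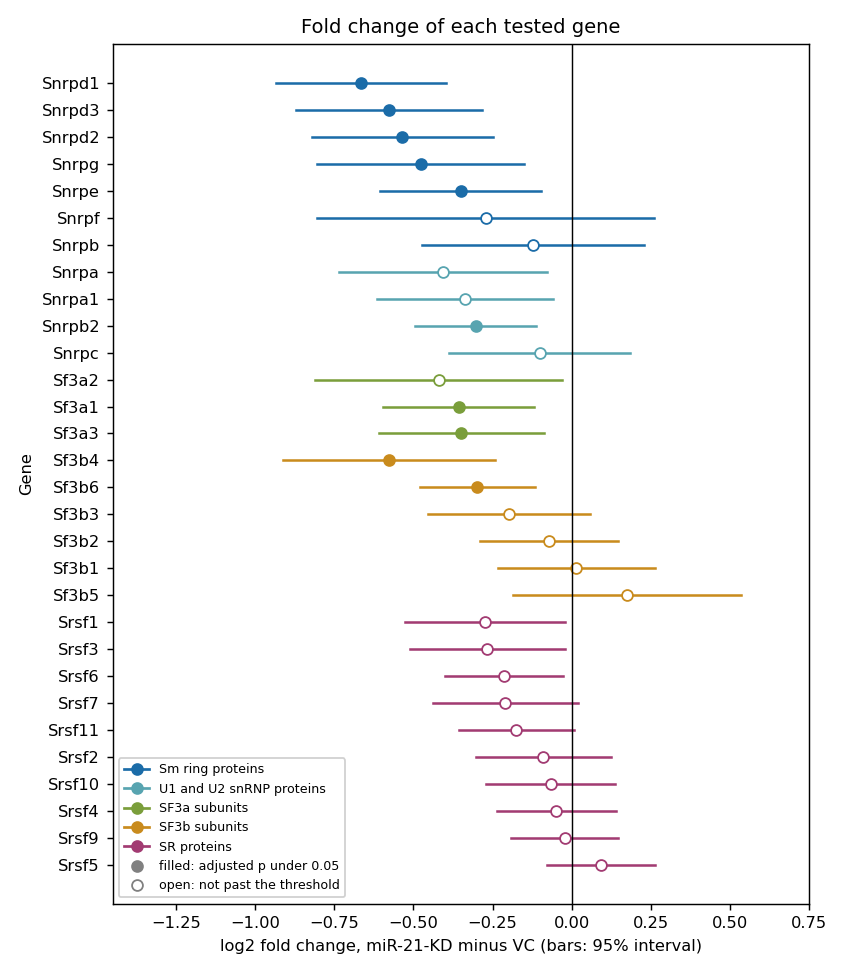
Log2 fold change of each tested gene (horizontal axis, miR-21-KD minus VC) with its 95% interval as a bar, coloured by role. Filled points are the 10 genes past the threshold, from Snrpd1 at -0.67 to Sf3b6 at -0.30, and none is an SR gene.

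With single tumours left out the count of falls changed, while the median log2 fold change of the 30 genes stayed between -0.33 and -0.21. The count rose to 19 (63.3% of the 30) without miR-21-KD replicate 2, where 24.3% of all genes fell. It was 5 without VC replicate 2 (16.7%, against 10.8% of all genes) and 4 without VC replicate 3 (13.3% against 10.2%). It was 5 without miR-21-KD replicate 1 (16.7% against 13.7%), 4 without replicate 3 (13.3% against 12.2%) and 5 without replicate 4 (16.7% against 11.1%). In these 5 fits the share of members was nearer to that of all genes than with all 8 tumours. The count was 9 and 7 without VC replicates 1 and 4, where 16.6% and 18.4% of all genes fell. Only 3 of the 10 genes, Snrpd1, Snrpd2 and Snrpd3, passed the threshold after the removal of any 1 tumour.

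**Figure D2:**
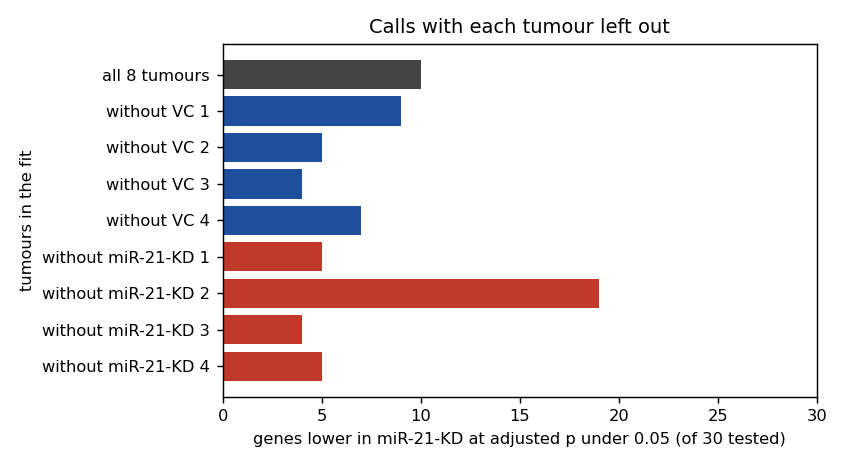
Number of the 30 tested genes lower in miR-21-KD at an adjusted p under 0.05 (horizontal axis) with all 8 tumours and with each tumour left out (blue for VC, red for miR-21-KD). The count is 10 with all tumours, 4 to 9 with 7 of the omissions and 19 without miR-21-KD replicate 2.

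The tumours differed in how far the genes were lowered. Replicate 1 of the miR-21-KD group was below every VC tumour for 26 of the 30 genes, replicate 3 for 21 and replicate 4 for 19, but replicate 2 for 11. Over all genes tested these shares were 39.9%, 35.3%, 37.3% and 28.8% for replicates 1, 3, 4 and 2. Replicate 2 lay inside the VC range for 16 genes. The median log2 difference of the 30 genes from the VC mean was -0.42, -0.02, -0.31 and -0.30 in replicates 1 to 4. Replicate 2 was thus the closest to the VC tumours, and it was also the miR-21-KD tumour with the highest summed level of dividing cell genes and the lowest of leukocyte, fibroblast, adipocyte and endothelial genes. Among VC tumours, replicate 4 had the lowest sum of dividing cell genes (1663 CPM). The lowest sum of the 32 members was in VC replicate 1 (4024 CPM, against 4084 CPM in replicate 4). A link between these levels was not tested.

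**Figure D3:**
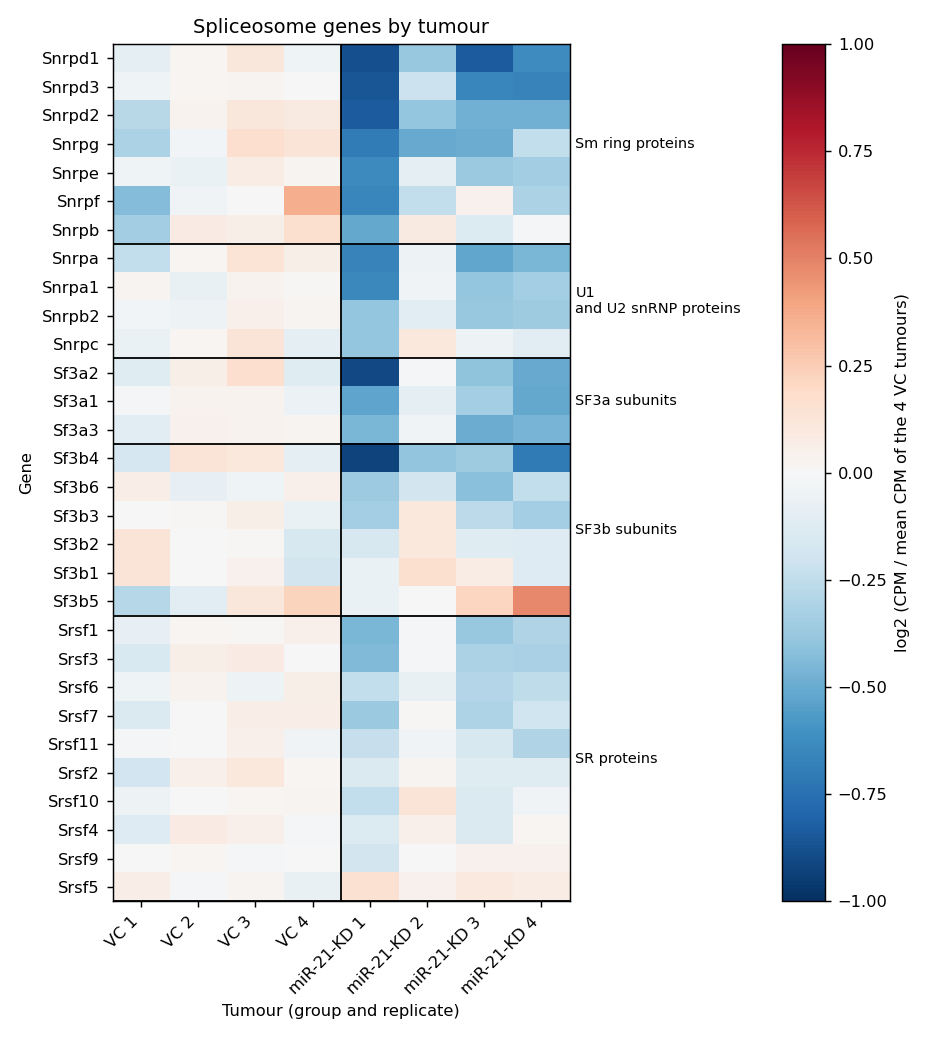
Log2 ratio of CPM to the mean CPM of the 4 VC tumours for the 30 tested genes (rows, grouped by role) in the 8 tumours (columns), blue for lower and red for higher. The column of miR-21-KD replicate 1 is the bluest, with a median of -0.42, and that of replicate 2 is the palest of the miR-21-KD columns, with a median of -0.02.

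Of the 8 Sm ring genes, 7 were tested and 5 fell (71.4%, against 19.5% of all genes). The number was 5 without miR-21-KD replicate 2, where 24.3% of all genes fell, 4 without VC replicate 1 or miR-21-KD replicate 4, and 3 without any 1 of VC replicates 2, 3 and 4 and miR-21-KD replicates 1 and 3. All 7 had a log2 fold change below 0, with a median of -0.48 and a range of -0.67 to -0.12. Snrpd1 codes for SmD1, which pairs with SmD2 in ring assembly. Snrpd1 had 69.3, 74.5, 79.4 and 71.3 CPM in VC replicates 1 to 4 and 40.0, 56.6, 41.4 and 47.6 CPM in miR-21-KD replicates 1 to 4. All miR-21-KD tumours were below all VC tumours, with replicate 2 the highest of them. Snrpd1 fell by 37.0% (log2 fold change -0.67, SE 0.12, adjusted p = 0.00699), and it was the only member past an adjusted p of 0.01.

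Snrpd3 codes for SmD3, which pairs with SmB in the ring. Its levels were 109, 114, 114 and 112 CPM in the VC tumours and 61.9, 96.6, 71.2 and 70.7 CPM in the miR-21-KD tumours. The VC tumours lay within a few CPM of each other, and the groups did not overlap. Snrpd3 fell by 33.0% (log2 fold change -0.58, SE 0.13, adjusted p = 0.0123). Snrpd2, which codes for SmD2, had 44.3, 54.9, 57.9 and 57.1 CPM in VC and 29.99, 41.0, 38.4 and 38.4 CPM in miR-21-KD tumours. The lowest VC tumour, replicate 1, was above the highest miR-21-KD tumour. Snrpd2 fell by 31.0% (log2 fold change -0.53, SE 0.13, adjusted p = 0.0139). Without single tumours the adjusted p of these genes reached at most 0.0279 for Snrpd1, 0.0390 for Snrpd3 and 0.0459 for Snrpd2.

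Snrpg and Snrpe, which code for SmG and SmE, also fell, with log2 fold changes of -0.48 and -0.35. Snrpg had 22.2 to 31.2 CPM in VC and 17.1 to 23.4 CPM in miR-21-KD tumours, and the groups overlapped. It missed the threshold without any 1 of VC replicates 2, 3 and 4 and miR-21-KD replicates 1 and 3 (adjusted p from 0.0577 to 0.0860). Snrpe had 66.3 to 73.1 CPM in VC and 44.5 to 64.7 CPM in miR-21-KD tumours, with no overlap. Its call was lost without any 1 tumour other than miR-21-KD replicate 2 (adjusted p from 0.0605 to 0.0963) and with a minimum of 10 counts in every tumour (adjusted p = 0.0504). Snrpf, which codes for SmF, was at 3.39 to 5.89 CPM in VC and 2.91 to 4.71 CPM in miR-21-KD tumours, with a log2 difference of -0.27 that did not pass. In GENCODE, 85.4% of its exonic bases are shared with Ccdc38 and 4933408J17Rik on the other strand. The strand setting of the counts is not given in the sources used here, so its level is uncertain.

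Snrpb codes for SmB and had the largest p of the ring genes. It had 131, 176, 174 and 187 CPM in VC and 117, 178, 152 and 166 CPM in miR-21-KD tumours. Replicate 1 was the lowest of each group, and the groups overlapped. Its log2 difference was -0.12 (SE 0.15, adjusted p = 0.546) with a 95% interval of -0.47 to 0.23. Snrpn, which codes for the SmB-like protein SmN of neurons, had 0 counts in all 8 tumours, which allows up to 0.247 CPM in the smallest library. Snurf, which shares its transcript, also had 0 counts throughout, so that a loss of its reads in counting and a lack of expression cannot be told apart.

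**Figure D4:**
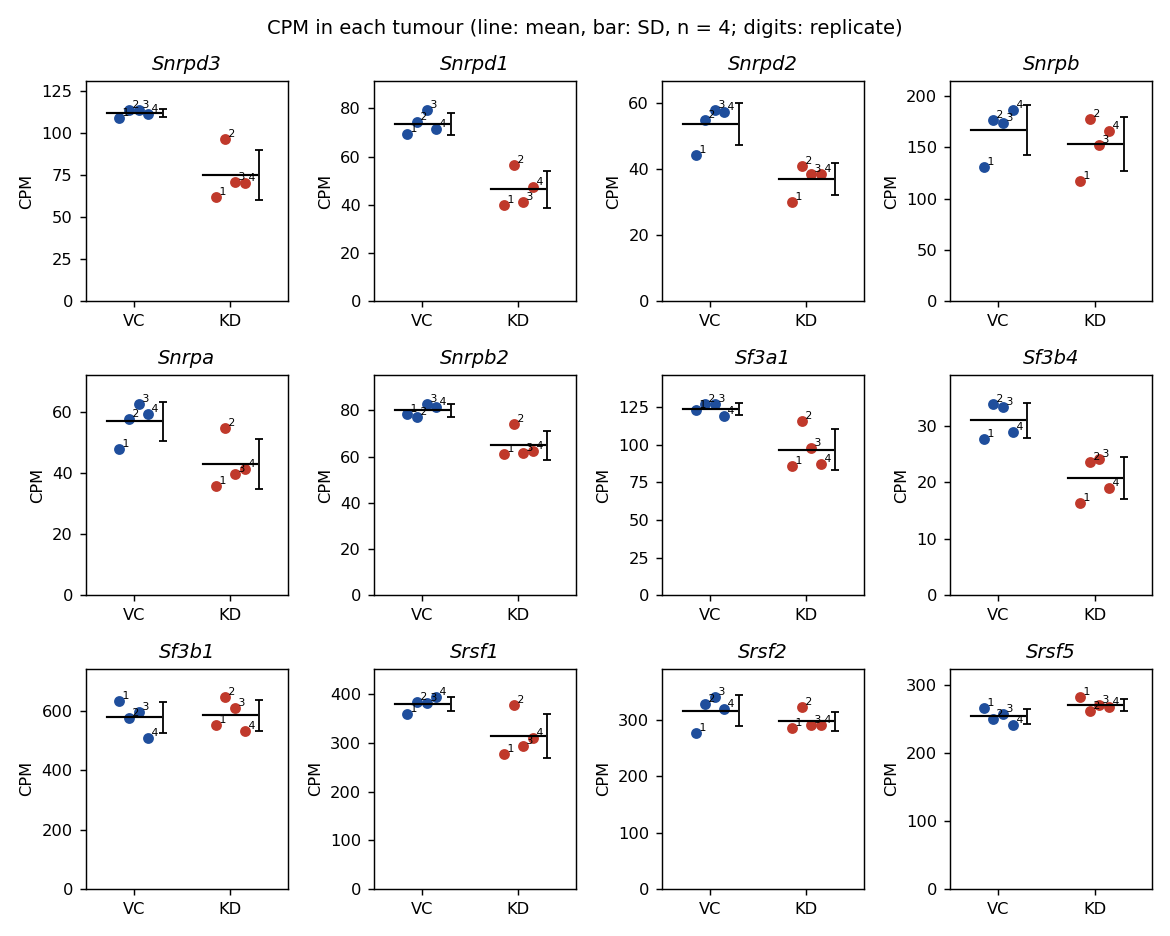
CPM of 12 genes (vertical axes, from 0) in each VC tumour (blue) and miR-21-KD tumour (red), with digits for the replicate, a line for the mean and a bar for the SD (n = 4). Snrpd1, Snrpd2, Snrpd3, Snrpb2, Sf3a1 and Sf3b4 do not overlap between groups, while Snrpb, Sf3b1, Srsf2 and Srsf5 do.

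All 4 genes of the U1 and U2 particles had log2 differences below 0, with a median of -0.32, and 1 passed the threshold, a share of 25% near the 19.5% of all genes. Without miR-21-KD replicate 2, where 24.3% of all genes fell, 3 of the 4 passed. The number was 2 without VC replicate 1 and 0 without VC replicate 3 or miR-21-KD replicates 1, 3 or 4. Snrpb2 codes for U2-B″, which binds a hairpin of U2 RNA. It had 78.5, 77.1, 83.0 and 81.6 CPM in VC and 61.2, 74.2, 61.6 and 62.5 CPM in miR-21-KD tumours. Replicate 2 was far above the other miR-21-KD tumours but under the lowest VC tumour. Snrpb2 fell by 18.9% (log2 fold change -0.30, SE 0.08, adjusted p = 0.0232). Its adjusted p was 0.0678 without VC replicate 3 and 0.0562, 0.0643 and 0.0636 without miR-21-KD replicates 1, 3 and 4.

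Snrpa codes for the A protein of U1, which binds a hairpin of U1 RNA. It had 47.9, 57.8, 62.7 and 59.3 CPM in VC and 35.8, 54.8, 39.6 and 41.3 CPM in miR-21-KD tumours. Only miR-21-KD replicate 2 reached into the VC range. Snrpa differed by a log2 value of -0.41 (SE 0.14, adjusted p = 0.0515). Snrpa passed with the replicate number as a block (adjusted p = 0.0264), with DESeq2 (0.0357) and limma-voom (0.0445), and without VC replicate 1 (0.0391) or miR-21-KD replicate 2 (0.00642).

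Snrpa1 codes for U2-A′, the partner of U2-B″. It had 58.7, 54.8, 59.3 and 58.2 CPM in VC and 36.9, 56.3, 44.2 and 45.6 CPM in miR-21-KD tumours, where again replicate 2 alone lay in the VC range. Snrpa1 differed by -0.34 on the log2 scale (SE 0.12, adjusted p = 0.0559). The adjusted p was 0.00683 without miR-21-KD replicate 2, 0.0431 with DESeq2 and 0.0461 with limma-voom. Snrpc, which codes for the C protein of U1 that acts at the start of the intron, had 19.7, 21.0, 22.5 and 19.4 CPM in VC and 15.8, 22.2, 19.96 and 19.1 CPM in miR-21-KD tumours. These groups overlapped, and the log2 difference was -0.10 (SE 0.13, adjusted p = 0.543) with a 95% interval of -0.39 to 0.18.

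SF3a and SF3b join the U2 particle and help it to bind the branch point. The 3 SF3a genes had a median log2 fold change of -0.36, and 2 of them fell, where 19.5% of all genes fell. The number was 3 without miR-21-KD replicate 2, where 24.3% of all genes fell, 1 without VC replicate 1 or 4, and 0 without VC replicates 2 or 3 or miR-21-KD replicates 1, 3 or 4. Sf3a1, which codes for the largest SF3a subunit, had 123, 127, 127 and 119 CPM in VC and 85.9, 116, 98.1 and 87.2 CPM in miR-21-KD tumours. The groups did not overlap, and replicate 2 came nearest to the VC range. Sf3a1 fell by 21.9% (log2 fold change -0.36, SE 0.10, adjusted p = 0.0277). The call was lost without any 1 tumour other than VC replicate 4 and miR-21-KD replicate 2 (adjusted p from 0.0515 to 0.0770).

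Sf3a3 had 72.6, 80.8, 80.3 and 80.2 CPM in VC and 57.2, 76.8, 55.8 and 56.8 CPM in miR-21-KD tumours. One tumour of each group, VC replicate 1 and miR-21-KD replicate 2, crossed over. Sf3a3 fell by 21.5% (log2 fold change -0.35, SE 0.12, adjusted p = 0.0408). The call held without either of these 2 tumours but not without any of the other 6 (adjusted p from 0.0678 to 0.104), with upper-quartile scaling (0.0506) or with at least 10 counts in every tumour (0.0552). Sf3a2 had 67.6, 76.8, 82.6 and 67.6 CPM in VC and 39.5, 72.8, 55.8 and 52.0 CPM in miR-21-KD tumours, where only replicate 2 lay in the VC range. Its log2 difference was -0.42 (SE 0.17, adjusted p = 0.0803), with an adjusted p of 0.0295 with the replicate block and 0.0109 without miR-21-KD replicate 2.

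The 6 SF3b genes differed more among themselves. Sf3b4 and Sf3b6 fell, 2 more were below 0, and Sf3b1 and Sf3b5 were above 0, with a median of -0.14. The 2 that fell are 33.3% of the 6, against 19.5% of all genes. Without miR-21-KD replicate 2, where 24.3% of all genes fell, 3 of the 6 fell, and 1 did without VC replicates 2 or 3 or miR-21-KD replicates 3 or 4. Sf3b4, whose product contacts RNA upstream of the branch point, had 27.7, 34.0, 33.4 and 28.9 CPM in VC and 16.3, 23.6, 24.2 and 18.9 CPM in miR-21-KD tumours. The groups did not overlap, and here replicates 2 and 3 were the highest of the miR-21-KD tumours. Sf3b4 fell by 33.0% (log2 fold change -0.58, SE 0.15, adjusted p = 0.0177). Its adjusted p was 0.0523 and 0.0543 without VC replicates 2 and 3 and 0.0529 without miR-21-KD replicate 4. Of its exonic stretches of 50 bases, 45.3% also occur in other genes, mainly the processed pseudogene Gm7935.

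Sf3b6 codes for p14, which sits at the branch point. It had 88.9, 80.02, 82.1 and 87.8 CPM in VC and 65.7, 74.6, 63.6 and 71.5 CPM in miR-21-KD tumours, with no overlap. Sf3b6 fell by 18.7% (log2 fold change -0.30, SE 0.08, adjusted p = 0.0204), and its adjusted p was 0.0583 without miR-21-KD replicate 3. Sf3b3 had 236, 239, 248 and 226 CPM in VC and 188, 255, 198 and 188 CPM in miR-21-KD tumours. Replicate 2 was above every VC tumour and the other 3 were below them all. On the log2 scale Sf3b3 differed by -0.20 (SE 0.11, adjusted p = 0.186), with an adjusted p of 0.0109 without replicate 2.

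Sf3b1 codes for the subunit that clamps the branch point and is mutated in several cancers. It had 633, 577, 596 and 509 CPM in VC and 553, 645, 609 and 530 CPM in miR-21-KD tumours. The groups overlapped across most of their ranges. Their log2 difference was 0.01 (SE 0.11, adjusted p = 0.928) with a 95% interval of -0.23 to 0.26, and its sign changed with the scaling and the filter. Sf3b2 and Sf3b5 had log2 differences of -0.07 and 0.18, with 95% intervals of -0.29 to 0.14 and -0.18 to 0.53.

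SR proteins carry a domain rich in serine and arginine and act in both constitutive and alternative splicing. Of 11 genes, 10 were tested, and Srsf12 had 0 to 2 counts per tumour. Of the 10, 9 had log2 differences below 0, with a median of -0.13 and a range of -0.28 to 0.09, and 0 were called. By unadjusted p under 0.05, 3 were lower, where 25.4% of all genes were, and 0 higher. DESeq2 called 2 lower, Srsf1 and Srsf6, where it called 21.6% of all genes lower, and limma-voom 0. Without miR-21-KD replicate 2, where 24.3% of all genes fell, 5 were lower, namely Srsf1 (adjusted p = 0.00895), Srsf3 (0.0115), Srsf6 (0.0201), Srsf7 (0.0245) and Srsf11 (0.0322).

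Srsf6 had 259, 273, 257 and 278 CPM in VC and 225, 253, 218 and 224 CPM in miR-21-KD tumours. The groups did not overlap, though replicate 2 came close. The log2 difference was -0.21 (SE 0.08, adjusted p = 0.0645 by edgeR and 0.0154 by DESeq2). Srsf1, one of the first SR proteins described, had 359, 385, 383 and 394 CPM in VC and 277, 378, 293 and 309 CPM in miR-21-KD tumours. Replicate 2 alone lay within the VC range. On the log2 scale the difference was -0.28 (SE 0.11, adjusted p = 0.0769 by edgeR and 0.0431 by DESeq2).

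Srsf3, the smallest SR protein, had 165, 191, 194 and 183 CPM in VC and 135, 181, 147 and 146 CPM in miR-21-KD tumours, with replicate 2 within the VC range and the others below it. The log2 difference was -0.27 (SE 0.11, adjusted p = 0.0770), with an adjusted p of 0.0395 with the replicate block. Srsf2, also known as SC35, had 276, 328, 340 and 320 CPM in VC and 285, 322, 291 and 290 CPM in miR-21-KD tumours. The lowest tumour of all was a VC tumour, replicate 1. The log2 difference was -0.09 (SE 0.09, adjusted p = 0.467), with a 95% interval of -0.30 to 0.12.

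Srsf9 had the largest p of the SR genes. It had 71.6, 72.2, 70.7 and 71.0 CPM in VC and 62.9, 71.5, 73.5 and 73.4 CPM in miR-21-KD tumours. Only replicate 1 of the miR-21-KD tumours was low, and the log2 difference was -0.02 (SE 0.07, adjusted p = 0.832) with a 95% interval of -0.19 to 0.15. The log2 differences of the others were -0.21 for Srsf7, -0.18 for Srsf11, -0.07 for Srsf10, -0.05 for Srsf4 and 0.09 for Srsf5, the only SR gene above 0. Srsf5 had 241 to 266 CPM in VC and 262 to 282 CPM in miR-21-KD tumours.

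Per kilobase of exon, the mean levels in VC tumours ran from 3.17 CPM for Snrpc to 107 for Srsf2 among the tested genes. Srsf2 was followed by Snrpb (84.4), Srsf1 (66.6) and Srsf5 (63.6). Within the Sm ring, whose proteins are present once each, the levels per kilobase ran from 5.32 for Snrpf to 84.4 for Snrpb. These values use the union of exons in GENCODE, which can be longer than the transcripts that were counted, so they order genes only roughly. Levels of several more members are uncertain for the same reason as Snrpf, since the exons of Srsf4 (43.0% of bases), Srsf2 (25.3%) and Sf3a2 (16.1%) are shared with neighbouring or antisense genes and 20.2% of the 50-base stretches of Snrpa occur in other genes.

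Since miR-21 was the target of the knockdown, its binding sites were looked for in the 3′ ends of the members. The mature strand, mmu-miR-21a-5p, lies at chr11:86584120-86584141 on the minus strand (RefSeq, GRCm38.p6), and its sequence is shown with the seed, bases 2 to 8, in capitals.
mmu-miR-21a-5p: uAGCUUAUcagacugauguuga
A match to the seed reads ATAAGCT, or TAAGCTA for a match to bases 2 to 7 followed by A. In the longest annotated 3′UTR of each coding gene (GENCODE vM21, sense strand), 5 of the 32 members held 1 such match and none the full 8-base form, ATAAGCTA, while 11.1% of 21022 genes held any match and 2.1% the 8-base form. The 5 sites are printed with the match in capitals and the bases around it, all on the plus strand.
Snrpd3 chr10:75535425-75535452: gataaactgtTAAGCTAaataaaatttg
Sf3a1 chr11:4181713-4181740: gagtgtgttgATAAGCTgtaaacaaagc
Snrpa1 chr7:66074389-66074416: agatgctctgATAAGCTctcttgggaca
Srsf3 chr17:29041488-29041515: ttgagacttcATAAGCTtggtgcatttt
Srsf10 chr4:135868087-135868114: aaaacctgtgATAAGCTgatctgttgtg
The RefSeq gene of Snrpd3 ends at 75535440, inside the printed stretch, so that the last base of the match lies past the RefSeq end and the whole match only in the longer GENCODE transcript. Snrpd3 and Sf3a1 fell, and the other 3 had log2 differences of -0.34 (Snrpa1), -0.27 (Srsf3) and -0.07 (Srsf10). Of the 30 tested members, 27 were below 0 and none passed as higher, so these signs do not set members with a site apart. An effect of the sites was not tested. A match is a description of the sequence and was not tested for binding.

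The promoters of 28 members were searched, which leaves out Snrpd1, Snrpb, Sf3b4 and Sf3b5, from 250 bases before the start to 50 after it (RefSeq, GRCm38.p6, both strands). The E-box CACGTG, the sequence bound by Myc and related factors, was in 1 member, Snrpa, and in 7.9% of 17492 promoters. The CCAAT box was in 10 members and in 39.0% of promoters. The E2F-like sequence TTCCCGCC was in 3 members, Srsf1, Srsf10 and Srsf4, none of which passed the threshold, and in 2.89% of promoters. The 250 bases before the start of Snrpa hold the E-box at both places in capitals, and they are shown since no other member searched had it.
Snrpa promoter chr7:27196272-27196521, minus strand: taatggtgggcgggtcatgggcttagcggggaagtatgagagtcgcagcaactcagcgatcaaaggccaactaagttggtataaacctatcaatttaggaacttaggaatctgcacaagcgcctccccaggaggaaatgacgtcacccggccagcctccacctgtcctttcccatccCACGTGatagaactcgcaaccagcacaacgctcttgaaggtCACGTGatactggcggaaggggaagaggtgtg
These letters do not show whether a factor was bound there, and no match elsewhere says only that the letters are not in the window searched.

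The other genes of the splicing machinery were counted in 8 lists of 130 genes, of which 129 were tested. Of these 55 fell (42.6%, against 19.5% of all genes) and 4 rose (3.1% against 19.6%), with a median log2 fold change of -0.26. The number that fell was 24 without VC replicate 2 (18.6%, against 10.8% of all genes) and 22 without VC replicate 3 (17.1% against 10.2%). It was 26 without miR-21-KD replicate 1 (20.2% against 13.7%), 25 without replicate 3 (19.4% against 12.2%) and 23 without replicate 4 (17.8% against 11.1%). It was 72 without miR-21-KD replicate 2 (55.8% against 24.3%).

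The SMN complex and the enzymes that methylate Sm proteins before ring assembly had 14 genes. Of these, 9 fell (64.3%, against 19.5% of all genes) and 0 rose (median -0.51). Gemin8, a scaffold of the SMN complex, went from 10.2 ± 1.64 to 4.34 ± 0.52 CPM (SD, n = 4; log2 fold change -1.23, adjusted p = 0.00569 by edgeR). Of 23 genes of the U4/U6.U5 tri-snRNP and the Lsm ring, 9 fell (39.1%), among them Snu13, a U4 RNA binding protein, at -0.50. Of 16 other U1 and U2 factors 5 fell (31.2%), with Puf60, a partner of U2AF, at -0.34. Of 20 genes of the Prp19 complex and the catalytic steps 9 fell (45%), with Cwc15 at -0.41. Of 9 minor spliceosome genes 2 fell, a share of 22.2% near the 19.5% of all genes, with Scnm1 at -0.54. Of 5 exon junction genes 4 fell (80%), with the core subunit Rbm8a at -0.62. Counts per list are from all tumours and are not given with tumours left out.

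The 27 hnRNP genes, whose products coat pre-mRNA and often act against SR proteins, included 14 that fell and 1 that rose. These were shares of 51.9% and 3.7%, against 19.5% and 19.6% of all genes. Hnrnpa1, a splicing repressor, went from 74.4 ± 6.47 to 46.0 ± 7.36 CPM (log2 fold change -0.69) and Ptbp3, a relative of the splicing repressor Ptbp1, from 220.5 ± 43.5 to 350 ± 33.1 CPM (0.67). Of 15 tested genes for kinases and import of SR proteins and for SR-related proteins, 3 were lower and 3 higher, shares near those of all genes (19.5% and 19.6%). Srpk2, a kinase that phosphorylates SR proteins in the cytoplasm, went from 93.5 ± 7.43 to 59.6 ± 3.23 CPM (log2 fold change -0.65, adjusted p = 0.00501 by edgeR). Clk1, a nuclear kinase of SR proteins, went from 146 ± 11.8 to 202 ± 9.38 CPM (0.46, adjusted p = 0.00739), and the kinase gene Clk4 and the SR-related gene Son were the others that rose. The SR-related genes Acin1 and Tra2a were the others that fell.

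**Figure D5:**
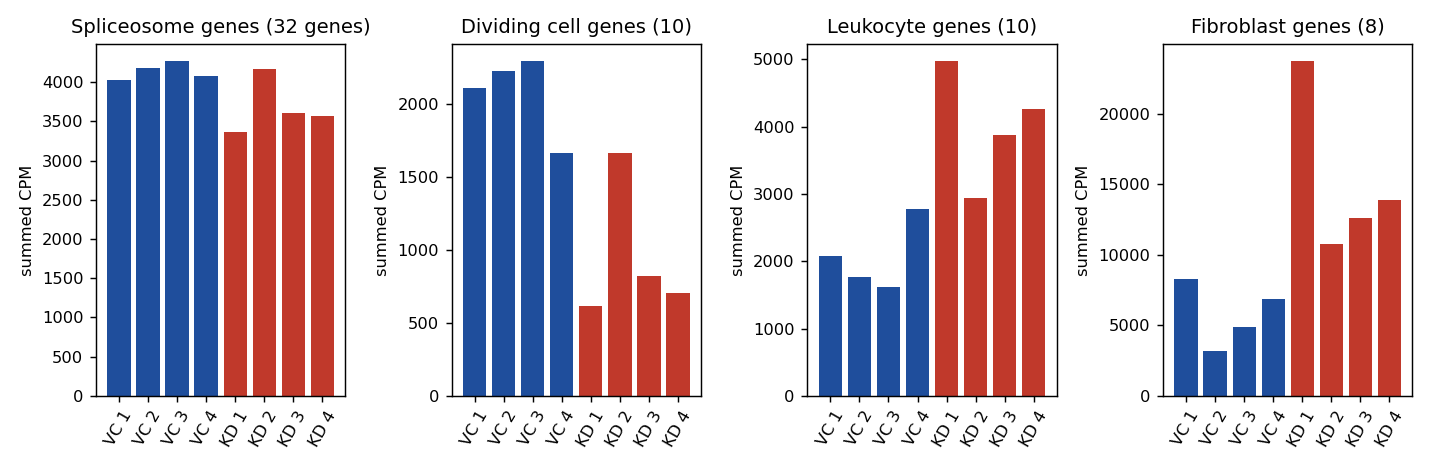
Summed CPM (vertical axes, from 0) in each VC tumour (blue) and miR-21-KD (KD) tumour (red) for the 32 spliceosome genes and for the genes of dividing cells, leukocytes and fibroblasts. The spliceosome sum lies between 4024 and 4273 CPM in VC tumours and is 3368, 4162, 3604 and 3564 CPM in miR-21-KD replicates 1 to 4, where replicate 2 also has the highest sum of dividing cell genes of its group.

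The 32 genes together summed to 4024, 4186, 4273 and 4084 CPM in VC tumours and to 3368, 4162, 3604 and 3564 CPM in miR-21-KD tumours. The sums of miR-21-KD replicates 1, 3 and 4 were below all VC tumours, and replicate 2 was within their range. Summed levels by role were 446.4 to 533.8 against 313.6 to 460.1 CPM for the Sm ring, 204.7 to 227.4 against 149.6 to 207.4 CPM for the U1 and U2 genes, 263 to 290.3 against 182.5 to 265.5 CPM for SF3a, 1067 to 1233 against 1033 to 1246 CPM for SF3b and 1877 to 2026 against 1689 to 1983 CPM for the SR genes, VC first. In each of these roles the ranges of the groups overlapped.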

How the data were processed

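Whole tumours were profiled by RNA sequencing, 4 VC and 4 miR-21-KD. The table that the authors deposited holds unnormalized read counts, with Entrez identifiers for genes. Per the labels, the submitters' processing notes name Subread, featureCounts, edgeR, limma and the mm10 genome, while the strand setting and the handling of reads with several matches are not given in the sources used here. Every column was used. Identifiers were given symbols from the RefSeq annotation of GRCm38.p6, which matched 25275 of 27179. The 32 members, the gene lists and the tests were chosen with earlier results of these data known, so no pattern here is independent of them.

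Genes were filtered with filterByExpr (minimum count 10, minimum total 15), which kept 14382 genes with 99.852% of the counts. Libraries were scaled with TMM in edgeR 4.0.16 (R 4.3.3), and a robust quasi-likelihood test compared the groups over all genes, with Benjamini-Hochberg adjustment and a threshold of 0.05. Standard errors came from the estimate and its F statistic, intervals are at 95%, and SDs are between tumours. Totals were 12134849 to 13592695 counts, and a limit for 0 uses 3 counts. Limits of this kind cover counting error only. Replicate pairs differed beyond sampling noise (chi-square per degree of freedom 12.6 to 70.7).

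The labels number both groups 1 to 4 and name no shared batch. After removal of the group means, tumours of the same number correlated at 0.272, 0.421, 0.175 and 0.376, so a fit with the number as a block was run beside the one without it, although some tumours of different number correlated as highly (VC replicate 3 with miR-21-KD replicate 2 at 0.393, VC replicate 4 with miR-21-KD replicate 1 at 0.334 and VC replicate 2 with miR-21-KD replicate 3 at 0.204).

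Every tested member was to be named. In each role the 3 genes of smallest p and the 1 of largest p, and Srsf2, Srsf3, Sf3b1, Snrpb and Snrpn, were to be given in every tumour, and in each wider list the gene of smallest p in each direction past the threshold. Alternatives were DESeq2 1.42.0, limma-voom (limma 3.58.1), scaling by library size, upper quartile or DESeq2 size factors, other filters, a threshold of 0.01, a test beyond 1.5-fold, the block and each tumour left out. Scripts were tested on simulated data, where the main test found 86.1% of 4-fold and 49.5% of 2-fold changes, with 10 false calls. The changes of the members were all smaller than 2-fold, so a member that did not pass is not shown to be unchanged.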

Additional observations from a re-analysis of the deposited data

Results flagged for a closer look

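The 30 tested members gave 60 groups of 4 tumours, and 6 of these had 1 tumour far from the other 3. None of the 12 groups of summed marker levels did. Chance marks about 1 in 20 such groups. In miR-21-KD tumours all 5 were replicate 2, which was the highest each time. Snrpb2 was at 74.2 CPM there, against 61.2 to 62.5 CPM in the others of its group. Sf3a3 was at 76.8 CPM against 55.8 to 57.1 CPM. Sf3b3 was at 255 CPM against 188 to 198 CPM. Srsf2 was at 322 CPM against 285 to 291 CPM. Sf3b2 was at 223 CPM against 186 to 191 CPM. In VC tumours Sf3a3 of replicate 1 was at 72.6 CPM against 80.2 to 80.8 CPM.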

How the results depend on the processing

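Of the members, 10 fell and 0 rose. The count of falls stayed within 1.5 times under the scalings, the filters, DESeq2, limma-voom and the block. It was 1 (Snrpd1) at an adjusted p under 0.01, 0 for a change beyond 1.5-fold and 4 to 19 with single tumours left out. No member was higher under any of these. The members without overlap between groups were 10, and 18 without miR-21-KD replicate 2. Of the wider splicing genes, 55 fell and 4 rose. The falls were 8 at the 0.01 threshold, 1 beyond 1.5-fold and 22 to 72 with single tumours left out, and the rises were 7 with DESeq2, 1 at the 0.01 threshold, 0 beyond 1.5-fold and 3 to 5 with single tumours left out. Over all genes 5626 passed, 1426 at the 0.01 threshold, 542 beyond 1.5-fold and 2936 to 6840 with single tumours left out. The cause of these shifts was not tested, apart from the stricter thresholds.

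With the replicate block, 13 members fell, the same 10 with Sf3a2, Snrpa and Srsf3, and the block changed no other call of a member. Signs turned only for genes that did not pass. Sf3b1 was -0.0104 with library size scaling, -0.0168 with no filter, and -0.0488, -0.0424 and -0.0073 without VC replicate 4 and miR-21-KD replicates 2 and 3, in a range of -0.0488 to 0.0603 over single tumours left out. Srsf9 was 0.0210 with upper-quartile scaling, 0.0289 with a minimum of 10 counts per tumour and -0.0448 to 0.0286 over single tumours left out, turning without miR-21-KD replicate 1, and Srsf4 was 0.0025 with at least 10 counts. The share of Snrpn in the sum of Snrpn and Snrpb was 0 in every tumour, since Snrpn had 0 counts, which left nothing to compare between groups. Srsf12, at 0 to 2 counts per tumour, was too low to be tested.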
